A study of Mus musculus with 8 samples.

Results

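The Period genes Per1, Per2 and Per3 are 3 of the 21887 protein-coding mouse genes, and their surroundings were examined in 6 deposited ChIP-seq peak lists from Beta-TC6 cells. A peak was taken for a Period gene when its centre lay inside the gene's RefSeq span (mm10) or within 20 kb of it. By this rule 42 of the 137716 peaks and intervals of the 6 lists lay at the Period genes, with 16 at Per1, 10 at Per2 and 16 at Per3. Membership followed from gene names and positions alone and used no measured value.

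Beta-TC6 cells derive from a mouse insulinoma and secrete insulin, and the series concerns enhancers of the pancreatic beta cell. All cells were harvested at confluence, fixed with DSG (a protein crosslinker) and formaldehyde, and sonicated, and the labels name no time of day, drug or synchronising step. Each target had 1 library, so there were no replicates and no comparison was tested. The targets were the clock activators BMAL1 and CLOCK, which bind DNA as partners, the beta-cell homeodomain factor PDX1, the promoter and enhancer marks H3K4me2 and H3K27ac (H3K4Me2 and H3K27Ac in the labels) and the histone variant H2A.Z. Libraries of input chromatin, 2 in all, served as the controls of peak calling. The shallowest library was BMAL1 (12892080 tags) and the deepest H3K4me2 (26678241 tags), and the lists held from 1378 peaks (CLOCK) to 41140 intervals (H3K4me2).

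PER proteins are the repressing arm of the circadian clock. BMAL1 and CLOCK activate the Per and Cry genes through E-boxes, PER and CRY proteins accumulate, enter the nucleus and inhibit BMAL1 and CLOCK, and the decay of the repressors lets the next cycle begin. PER1 and PER2 are needed for behavioural rhythms in mice, whereas PER3 has a lesser part in the core loop. D-boxes, bound by DBP, TEF, HLF and NFIL3, and cAMP response elements are further control elements known from Per promoters.

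The upstream sequences of Per1 and Per3 are shown because a CLOCK peak, or a BMAL1 and a CLOCK peak, lay over them. They are the 250 bases before a RefSeq transcription start (GRCm38.p6), 5′ to 3′ on the gene's strand. Per1 lies on the plus strand of chromosome 11, and its window covers chr11:69098699-69098948. Per3 lies on the minus strand of chromosome 4, and its window covers chr4:151044666-151044915. Capitals mark a canonical E-box (CACGTG) in Per1 and D-boxes (TTANGTAA) in Per3. Close variants of these letters were not sought, such as TTATGCAA, which stands unmarked in the Per1 window.

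Per1 first promoter: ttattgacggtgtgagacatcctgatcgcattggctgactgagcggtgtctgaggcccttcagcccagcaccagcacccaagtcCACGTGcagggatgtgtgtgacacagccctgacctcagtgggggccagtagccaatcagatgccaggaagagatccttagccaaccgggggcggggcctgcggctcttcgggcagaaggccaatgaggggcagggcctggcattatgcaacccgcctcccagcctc

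Per3 promoter: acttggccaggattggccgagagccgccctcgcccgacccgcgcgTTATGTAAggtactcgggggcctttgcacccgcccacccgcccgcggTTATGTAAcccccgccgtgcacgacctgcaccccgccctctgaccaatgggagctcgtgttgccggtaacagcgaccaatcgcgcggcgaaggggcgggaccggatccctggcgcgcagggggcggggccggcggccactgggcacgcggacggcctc

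The Per1 E-box began 166 bases upstream of the start, inside a CLOCK peak and 23.5 bp from its centre. The Per3 D-boxes, both with the letters TTATGTAA, began 205 and 158 bases upstream of the start. They lay 97.5 and 50.5 bp from the centre of a BMAL1 peak and 86.5 and 39.5 bp from the centre of a CLOCK peak. Both strands were searched, and the motifs sought also included the noncanonical E-box CACGTT, the cAMP response element TGACGTCA and the homeodomain core TAATTA. These 3 were not matched in either window, and none of the 5 motifs was matched in the 250 bases before the second RefSeq start of Per1.

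Among 32544 promoter windows of the same length, 6.03% held CACGTG, 3.87% CACGTT, 2.02% TTANGTAA, 1.55% TGACGTCA and 4.84% TAATTA. Windows with at least 2 matches of TTANGTAA numbered 24 (0.0737%), the Per3 window among them. CACGTG was found in 40.7% of the 334 windows under a CLOCK peak and in 29.9% of the 268 under a BMAL1 peak. TTANGTAA was found in 2.40% and 3.36% of the same windows. The windows were rich in G and C, with 62.0% and 64.0% for the Per1 starts and 72.4% for Per3, against a median of 52.4% over all windows. A match describes the letters and shows no bound site.

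Each Period gene had at least 1 peak or interval in 5 of the 6 lists and none in the PDX1 list. BMAL1 peaks lay at all 3 genes, against 14.0% of all protein-coding genes, and CLOCK peaks at all 3, against 8.23%. Both factors together were found at 3.69% of all genes. The background shares of BMAL1 and CLOCK were 7.47% and 3.25% with gene spans alone, where Per2 had neither factor, Per1 no BMAL1 and Per3 no CLOCK, and 21.3% and 13.1% within 50 kb. H3K4me2, H3K27ac and H2A.Z also lay at all 3 genes, but these marks were found at 74.8%, 63.1% and 60.5% of all genes, so their presence in the window says little about the Period genes. PDX1 was found at 0 of the 3 genes, against 41.2% of all genes, and a count over 3 genes says little beside such a share. Among the 6682 genes with spans as long as those of the Period genes (14858 to 47690 bp), the shares were 12.9% for BMAL1, 8.68% for CLOCK and 40.5% for PDX1. The genes thus had 5 peaks of BMAL1 and 4 of CLOCK, and 13 intervals of H3K4me2, 14 of H3K27ac and 6 of H2A.Z.

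**Figure D1:**
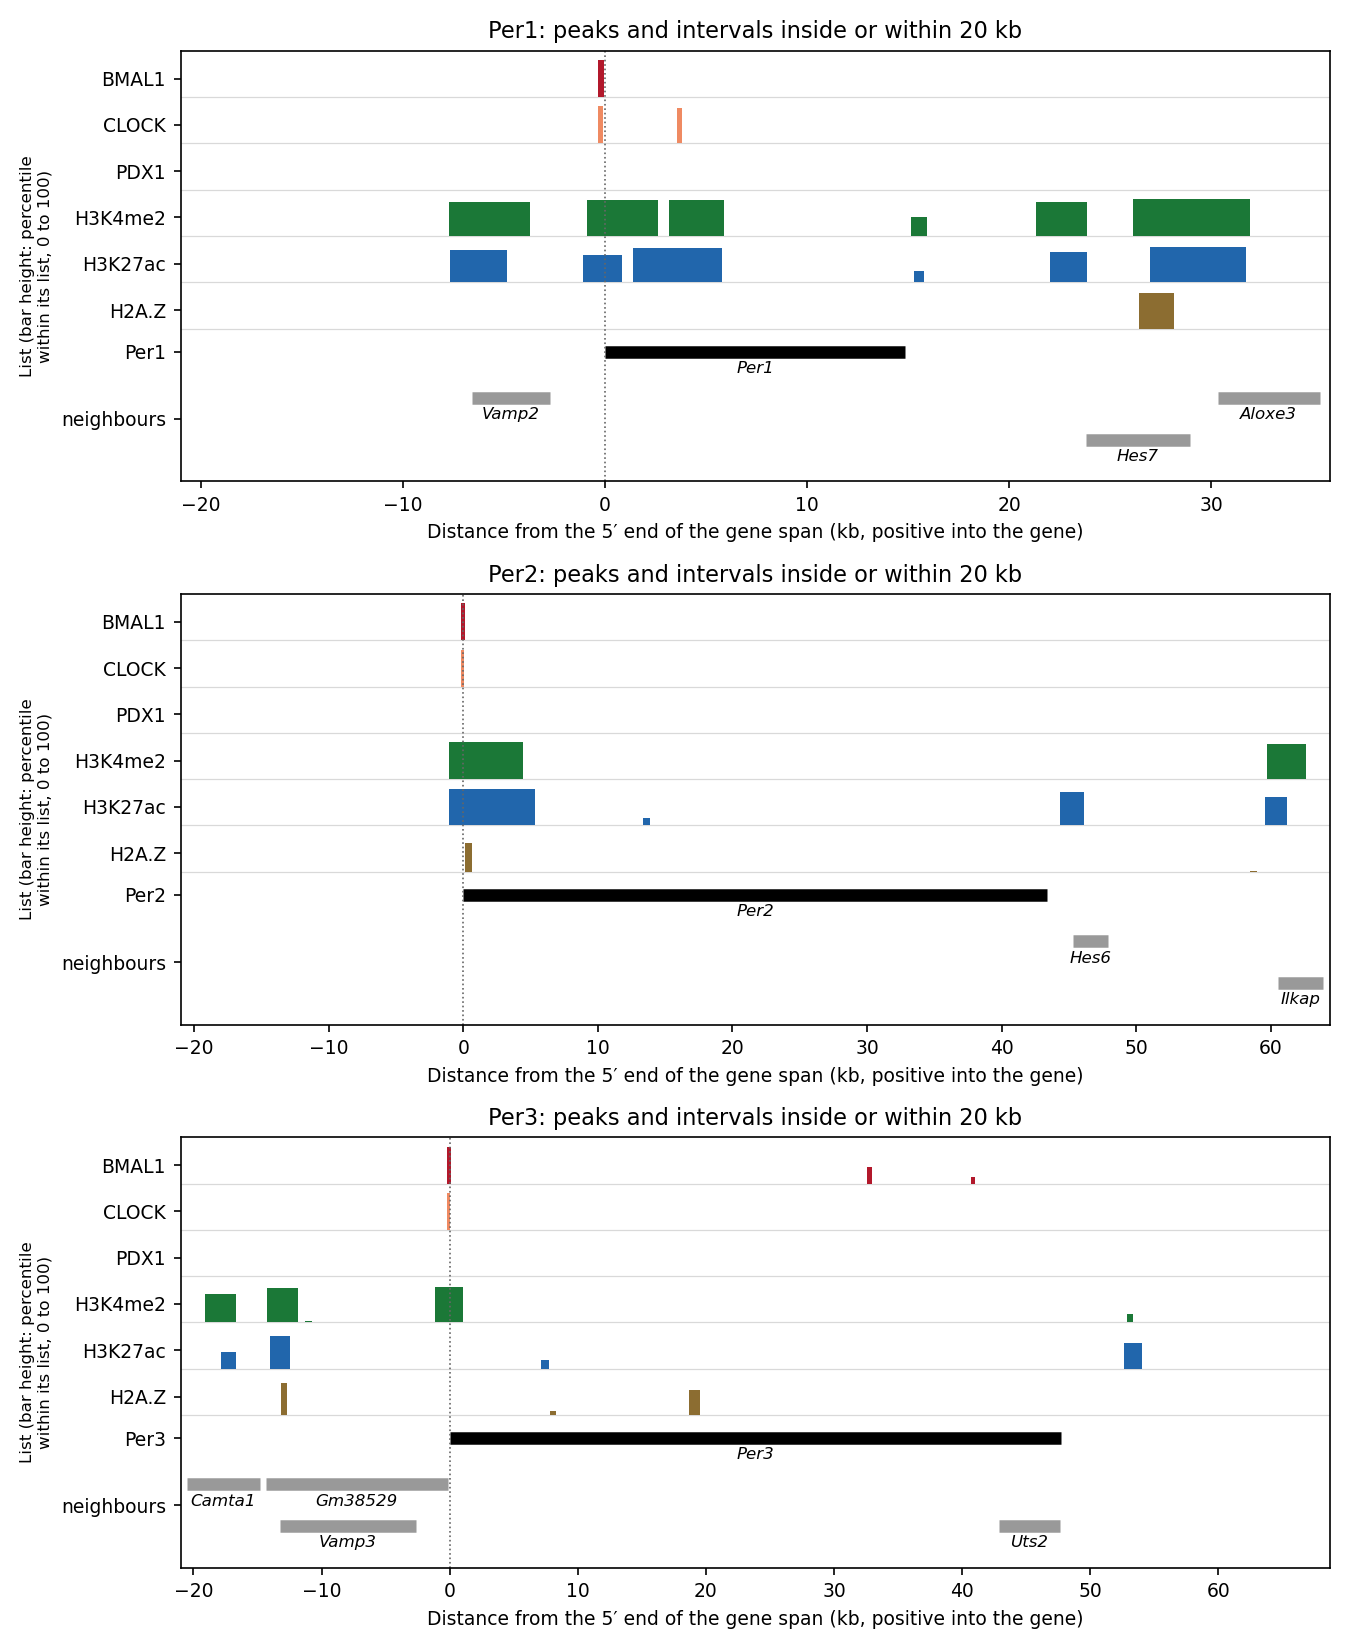
Map of all 42 peaks and intervals at Per1, Per2 and Per3, drawn by distance from the 5′ end of each gene span in kb, with bar height giving the percentile of a peak's normalized tag count within its own list (100 is the highest). BMAL1 and CLOCK bars stand together at the 5′ end of each gene, a second CLOCK bar stands inside Per1, low BMAL1 bars stand inside Per3, and the PDX1 rows are empty.

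In each gene the highest BMAL1 and the highest CLOCK peak lay together at the 5′ end, with centres between 31 and 204 bp outside the span. The values below are normalized tag counts, the tags in a peak per 10000000 tags of the library, with exact Poisson 95% intervals that cover counting error only. At most 1 tag was counted per base, and whether this limit lowered the highest counts was not tested. The Per2 CLOCK peak, for example, held 248 tags in 204 bp. Ranks were taken within each list of 4125 BMAL1 or 1378 CLOCK peaks.

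Per2 had the highest counts of the family. Its span is chr1:91415977-91459351 (43375 bp), and as Per2 is a minus-strand gene its upper end is the 5′ end. The BMAL1 peak at chr1:91459217-91459547 had a normalized tag count of 169.9 (148 to 194, from 219 tags). The CLOCK peak at chr1:91459313-91459517 had 138.6 (122 to 157, from 248 tags). Each had rank 3 in its list, at 16.8 times the BMAL1 median of 10.1 and 17.7 times the CLOCK median of 7.82. Both peaks crossed the gene's end, with centres 31 and 64 bp outside it.

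Per1 followed. Its span is chr11:69095108-69109965 (14858 bp). The BMAL1 peak at chr11:69094744-69095074 had 129.5 (111 to 151, from 167 tags) and had rank 7 in its list. The CLOCK peak at chr11:69094802-69095006 had 109.5 (94.7 to 126, from 196 tags) and had rank 5. The centres lay 199 and 204 bp before the span, which begins upstream of both Per1 starts of the promoter table. The BMAL1 centre was therefore 4040 bp upstream of the first of these starts and 5243 bp upstream of the second. The promoter table holds no start at the span's own 5′ end.

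Per3 had the lowest of the 3 paired sites. Its span is chr4:150997018-151044707 (47690 bp). The BMAL1 peak at chr4:151044604-151044934 had 114.0 (96.3 to 134, from 147 tags). The CLOCK peak at chr4:151044678-151044882 had 93.9 (80.2 to 109, from 168 tags). Each had rank 9 in its list, and the centres lay 62 and 73 bp outside the span. The BMAL1 centre was 104 bp upstream of the Per3 start and 84 bp from a start of Gm38529, a predicted gene whose span begins at 151044853. Which of the 2 genes the site belongs to cannot be told apart from position.

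The order Per2, Per1, Per3 was the same for both factors, and its single steps were not tested against counting error. The Per2 and Per3 intervals did not overlap in either list. The intervals of Per1 overlapped those of Per2 and of Per3 in both lists. Overlap of separate intervals does not show that a step lies within counting error. With a count moved to the ends of its interval and all other peaks held, the BMAL1 rank ran from 3 to 4 for Per2, from 4 to 11 for Per1 and from 7 to 13 for Per3. The CLOCK rank ran from 3 to 5, from 5 to 8 and from 6 to 11 for the same genes.

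**Figure D2:**
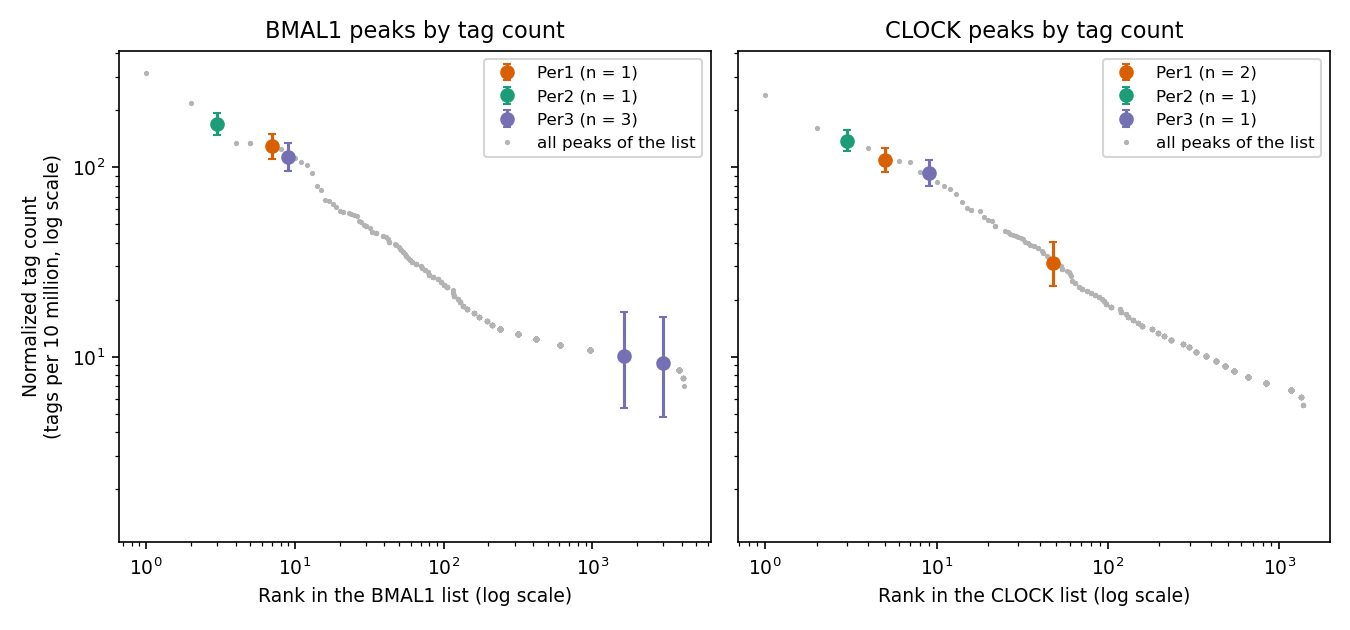
Normalized tag count (tags per 10000000, log axis) against rank in the list (log axis) for all 4125 BMAL1 and all 1378 CLOCK peaks, with the peaks of Per1, Per2 and Per3 in colour and bars for exact Poisson 95% intervals. The paired sites at the 5′ ends are all within the first 9 ranks of both lists, the second Per1 CLOCK peak is at rank 48, and 2 Per3 BMAL1 peaks are at ranks 1625 and 2994.

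High tag counts did not go with equally high folds over input. The paired BMAL1 peaks held 4.4 (Per1), 11.7 (Per2) and 8.1 (Per3) input tags, scaled to the BMAL1 library, against a median of 1.5 over the BMAL1 list. Their deposited folds over input were 37.98 at Per1, 18.68 at Per2 and 18.23 at Per3, against a list median of 8.87 and a 90th percentile of 35.5. Ranked by that fold, the peaks were at places 309, 1158 and 1159, so that only Per1 was above the 90th percentile. Input tags of 0.4 to 11.7 were found at the 10 highest BMAL1 peaks, and the Per2 value was at the top of that range.

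The same held for CLOCK. Input tags were 6.0 at Per1, 16.0 at Per2 and 8.0 at Per3, against a list median of 2.0, and the folds were 32.27, 15.23 and 20.64, against a median of 9.83. The fold over the surrounding 10 kb ordered the genes differently. For BMAL1 it was 46.84 at Per2, 29.11 at Per3 and 23.64 at Per1, against a list median of 5.79. For CLOCK it was 45.23, 29.73 and 20.69, against 6.03. Of the 3 genes Per2 thus had the highest fold over its surroundings in both lists, but for CLOCK the lowest fold over input, and the part of input chromatin in its tag count was not tested.

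**Figure D3:**
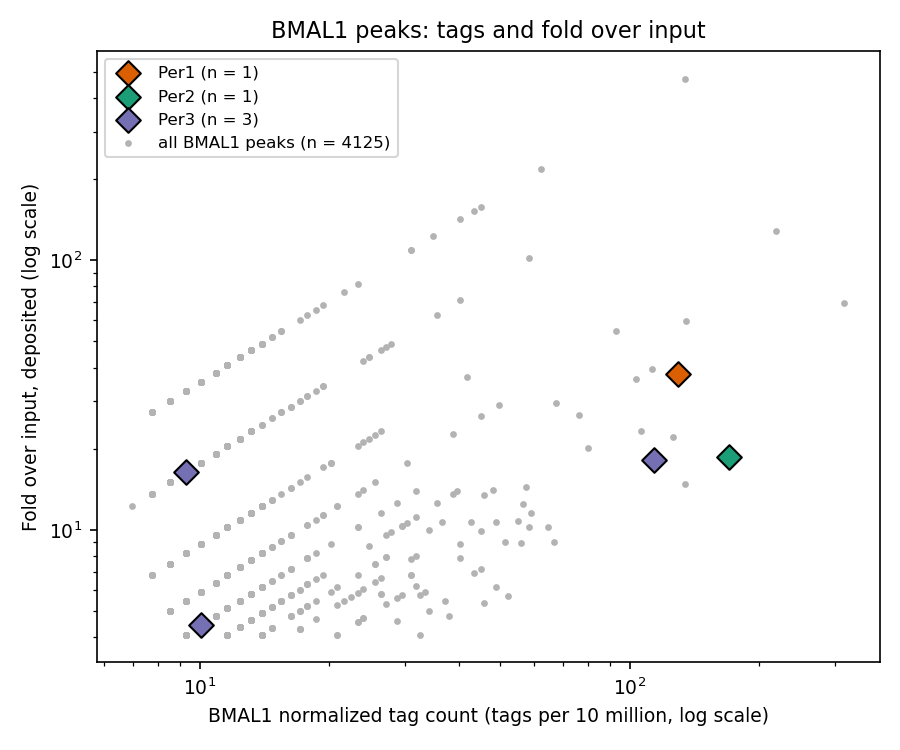
Deposited fold over input (log axis) against normalized tag count (log axis) for the BMAL1 peaks of Per1, Per2 and Per3 (coloured diamonds) and all 4125 BMAL1 peaks (grey). The paired peaks of the Period genes lie far to the right, between 114.0 and 169.9, at folds of 18.23 to 37.98, while many peaks near 10 tags per 10000000 reach similar or higher folds.

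At the 3 paired sites BMAL1 and CLOCK stood in nearly the same proportion. The ratio of the BMAL1 to the CLOCK normalized tag count was 1.18 at Per1, 1.23 at Per2 and 1.21 at Per3. The other 255 sites where a BMAL1 peak overlapped a CLOCK peak had a median ratio of 1.21, with quartiles of 0.955 and 1.46 and a range of 0.506 to 4.46. The 38 such sites among the 50 highest BMAL1 peaks had a median of 1.18 and quartiles of 0.99 and 1.35. The Period sites therefore lay in the middle of the shared sites. Peak widths differ between the lists (330 bp for BMAL1, 204 bp for CLOCK), so a ratio of 1 does not mean equal binding.

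The centres of the paired peaks were 5 bp apart at Per1, 33 bp at Per2 and 11 bp at Per3. The median distance was 11 bp for the Period genes, against 44 bp for the other 255 shared sites and 27 bp for the 38 among the highest peaks. The focus ratio, the fraction of tags on the sides of the centre where a single point source puts them, was between 0.757 and 0.856 at the 6 peaks. The list medians were 0.765 for BMAL1 and 0.731 for CLOCK.

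**Figure D4:**
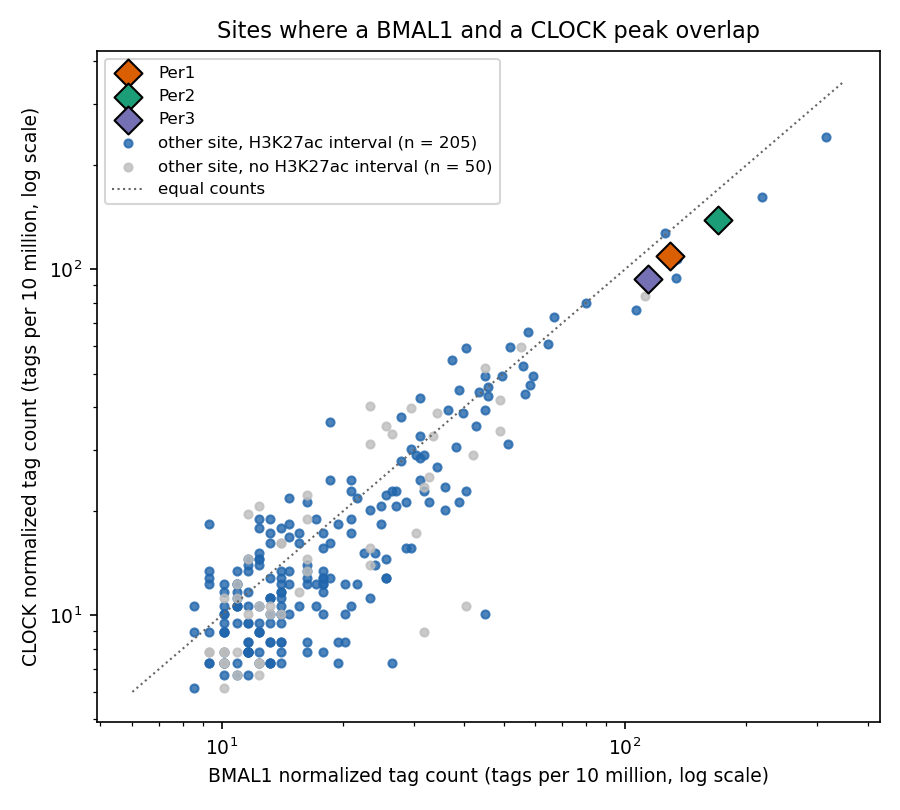
CLOCK against BMAL1 normalized tag count (log axes, tags per 10000000) at the 258 sites where the peaks overlap, with diamonds for Per1, Per2 and Per3, blue points for other sites with an H3K27ac interval (205) and grey points for other sites without one (50). The 3 diamonds lie just below the line of equal counts, near the upper end of the sites.

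Per1 carried a second CLOCK peak, at the first of its starts in the promoter table. It lay at chr11:69098707-69098911, 140 bp upstream of the first RefSeq start, over the E-box shown above, and all 205 of its bases lie in the printed window. Its normalized tag count was 31.3 (23.6 to 40.6, from 56 tags), rank 48 of 1378, with 7.0 input tags and a fold of 7.86 over input. It was 3633 bp from the nearest BMAL1 peak. Of the 1120 CLOCK peaks that overlapped no BMAL1 peak, 1 had a higher count (37.4, near Ndufv2) and 1 the same count (31.3, near Ccne2). Those neighbours were named after their values were seen.

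The header of the BMAL1 list gives a threshold of 13 tags, a normalized tag count of 10.1, and requires 4 times the input and 4 times the surrounding 10 kb. The threshold is no floor for the listed counts: 1132 of the 4125 BMAL1 peaks (27.4%) had fewer than 13 tags, down to 9. The second Per1 CLOCK peak passed the same local limit of the CLOCK list narrowly, with a fold of 4.54, and the centre of the paired site lies only 3900 bp away. The list does not say which limit BMAL1 tags missed at this promoter, and whether the local limit removed a BMAL1 site there was not tested.

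Per3 was alone among the 3 genes in having further BMAL1 peaks, and both had counts close to 13 tags. One lay at chr4:151011781-151012111, 32761 bp into the gene, with 10.1 (5.37 to 17.2, from 13 tags), rank 1625 and a fold of 4.43 over input. The other lay at chr4:151003709-151004039, 40833 bp into the gene, with 9.31 (4.81 to 16.3, from 12 tags) and rank 2994. Its fold of 16.37 over input rested on 0.7 scaled input tags. Neither overlapped a peak or interval of any other list. Over the whole list, 6.25% of BMAL1 peaks overlapped CLOCK, 5.14% PDX1, 18.4% H3K4me2, 18.3% H3K27ac and 8.63% H2A.Z. For each of these lists, most BMAL1 peaks thus had no overlap. Both further Per3 peaks lay nearer to an end of Uts2, the urotensin gene inside the Per3 span, than to an end of Per3.

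The promoter table also covered 312 of the 331 bases of the paired Per3 BMAL1 peak and all 205 bases of its CLOCK peak. In them 0 matches of CACGTG and 0 of CACGTT were found, beside the 2 D-boxes. Letters of the paired peaks at Per1 and Per2 were not analysed here.

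The marks around the paired sites differed between the genes. At Per2 the pair lay in a broad H3K4me2 interval and a broad H3K27ac interval. The H3K4me2 interval (chr1:91454921-91460389, 5468 bp) had a normalized tag count of 323.1 (302 to 345), rank 148 of 41140. The H3K27ac interval (chr1:91454053-91460414, 6361 bp) had 874.9 (826 to 926), rank 421 of 29735. They reached 1038 and 1063 bp outside the gene and ran 4430 and 5298 bp into it. These ranks are of counts over whole intervals of unequal width, and per kb the same intervals had rank 3527 for H3K4me2 and 2252 for H3K27ac. A 500 bp H2A.Z interval (chr1:91458711-91459211) with 13.5 (8.74 to 19.9, rank 5874 of 26455) ended 6 bp from the BMAL1 peak, on the side of the gene body.

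At Per1 both marks formed separate intervals over the site at the 5′ end and over the 2 starts of the promoter table. Over the paired site, H3K4me2 (chr11:69094198-69097711) had 196.4 (180 to 214) and H3K27ac (chr11:69094017-69095944) had 131.0 (112 to 152). Over these starts, H3K4me2 (chr11:69098293-69100993) had 190.0 (174 to 207) and H3K27ac (chr11:69096502-69100903) had 380.5 (348 to 415). Per kb of interval the paired site and these starts had 55.9 and 70.4 for H3K4me2 and 68.0 and 86.5 for H3K27ac. The gaps between the intervals were 582 bp for H3K4me2 and 558 bp for H3K27ac. They were at different places, each inside an interval of the other mark. The nearest H2A.Z interval was 26449 bp from the BMAL1 peak, at Hes7.

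At Per3 the paired site had H3K4me2 without H3K27ac. The H3K4me2 interval (chr4:151043668-151045831) had 173.2 (158 to 190), rank 1644. Per kb it had 80.1 and rank 339, the densest H3K4me2 of the 3 paired sites. The nearest H3K27ac interval (chr4:151036925-151037590) lay 7014 bp away inside Per3 and had 13.4 (7.94 to 21.2), rank 22640. It was 20.2 per kb, against 138 per kb over the Per2 site and 68.0 over the Per1 site. The nearest H2A.Z interval, also inside Per3, was 7720 bp away and had 7.02, from 13 tags.

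Of the paired sites of the Period genes, 3 of 3 were in H3K4me2, 2 of 3 in H3K27ac and 0 of 3 in H2A.Z. The other 255 shared sites were in H3K4me2 in 69.0% of cases, in H3K27ac in 80.4% and in H2A.Z in 27.5%. The Per3 combination of H3K4me2 without H3K27ac was found at 30 of these 255 sites (11.8%). It was found at 2 of the 38 other shared sites among the 50 highest BMAL1 peaks (5.26%), near Atxn7l1 and Hlf, which were named after their values were seen. The absence of an interval means that none was called at this depth.

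Many of the intervals lay at neighbouring genes. Of the 33 histone intervals, 16 had an end of a Period gene as their nearest gene end (6 of 13 for H3K4me2, 7 of 14 for H3K27ac and 3 of 6 for H2A.Z). In the Per1 window the highest were at Hes7, a Notch target gene, and Aloxe3, a lipoxygenase gene, with 310.4 for H3K4me2 and 520.5 for H3K27ac. Vamp2, a vesicle fusion gene upstream of Per1, had 136.4 and 251.7. Another pair of intervals at Hes7 had 138.7 and 184.7, and Hes7 also had the single H2A.Z interval of the window (33.5).

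Near Per2, Hes6 had H3K27ac at 334.3 without H3K4me2, and the phosphatase gene Ilkap had H3K4me2 at 158.2 and H3K27ac at 164.6. Near Per3, the vesicle fusion gene Vamp3 had H3K4me2 at 146.9, H3K27ac at 266.6 and H2A.Z at 18.9, and Camta1 had 76.5 and 40.2 for the 2 marks. The highest H3K27ac interval of the Per3 window was thus that of Vamp3, 13222 bp from Per3.

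Further intervals lay past the 3′ ends and inside the genes, the highest being H3K27ac past the 3′ end of Per3, at 2.38 times its list median. Past the 3′ end of Per1, H3K4me2 had 30.0 (centre 680 bp from the span) and H3K27ac 18.6 (670 bp). Past the 3′ end of Per3, H3K4me2 had 10.5 (5433 bp) and H3K27ac 116.9 (5643 bp). Both also lay upstream of Uts2, with centres 5512 and 5722 bp from its start. Which of the genes they belong to cannot be told from position, though both are counted above as nearest to an end of Per3. Inside Per2 an H3K27ac interval 13622 bp from the 5′ end had 11.9, and inside Per3 an H2A.Z interval 19119.5 bp from it had 10.8. The remaining intervals were H2A.Z near Ilkap (6.48) and H3K4me2 near Vamp3 (6.37).

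PDX1 peaks were distant from all 3 genes. The nearest was 53.2 kb from Per1 (normalized tag count 19.9), 114 kb from Per2 (14.8) and 128 kb from Per3 (17.9), against a list median of 9.20. Beyond the peaks described, the next BMAL1 peak was 207 kb from Per1, 413 kb from Per2 and 57.7 kb from Per3. The next CLOCK peak was 309 kb, 722 kb and 64.1 kb away. All BMAL1 and CLOCK peaks of the genes were thus within 204 bp of the span or inside it, and the 20 kb limit bore only on the histone intervals.

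At the limit itself, the farthest interval inside was H3K27ac 14469.5 bp from Per1 (520.5), H3K4me2 17767 bp from Per2 (158.2) and H3K4me2 17862 bp from Per3 (76.5). The nearest outside was H3K27ac 22892.5 bp from Per1 (473.6), H3K4me2 20192 bp from Per2 (9.37) and H3K4me2 23366 bp from Per3 (95.2).

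The Period genes were then set beside 32 other genes of the clock, grouped by role. Of the 3 Period genes, 3 had BMAL1, 3 CLOCK and 0 PDX1. Of the 32 others, 15 had BMAL1 (46.9%), 16 had CLOCK (50.0%) and 16 had PDX1 (50.0%). All 32 had H3K4me2, 28 had H3K27ac (87.5%) and 26 had H2A.Z (81.2%). Over all protein-coding genes the shares were 14.0% for BMAL1, 8.23% for CLOCK and 41.2% for PDX1. For H3K4me2, H3K27ac and H2A.Z they were 74.8%, 63.1% and 60.5%. The PDX1 count of 0 over 3 genes says little beside such shares. Among these 35 genes Per2, Per1 and Per3 were in places 3, 7 and 9 by their highest BMAL1 count, and in places 3, 5 and 9 by CLOCK.

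The roles in which every gene had both factors, like the Period genes, are given first. The cryptochromes, partners of PER in repression, had both at 2 of 2, with BMAL1 and CLOCK counts of 125.7 and 127.4 at Cry1 and of 36.5 and 39.1 at Cry2. The REV-ERB receptors, repressors of Arntl, had both at 2 of 2, with 314.9 and 240.8 at Nr1d2 and 135.0 and 107.3 at Nr1d1. Bhlhe40, Bhlhe41 and Ciart, repressors of BMAL1 and CLOCK activity, had both at 3 of 3, from 27.1 and 22.3 at Bhlhe40 to 134.2 and 108.4 at Ciart. The D-box factors had both at 4 of 4, from 15.5 and 17.3 at the repressor gene Nfil3 to 218.7 and 162.0 at the activator gene Tef.

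Fewer of the other genes had a peak. Of 4 activator genes, 2 had BMAL1 and 1 had CLOCK: Arntl, which encodes BMAL1, had 40.3 and 10.6, and Clock had a BMAL1 count of 23.3 and no CLOCK peak. Of 3 ROR activator genes, 1 had BMAL1. The 4 kinase genes that phosphorylate PER had neither factor, nor did the 4 genes of other PER complex members. Of 6 ubiquitin ligase and deubiquitinase genes, which set the stability of PER and CRY, 1 had BMAL1, which was Btrc, with 12.4 for BMAL1 and 8.38 for CLOCK.

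**Figure D5:**
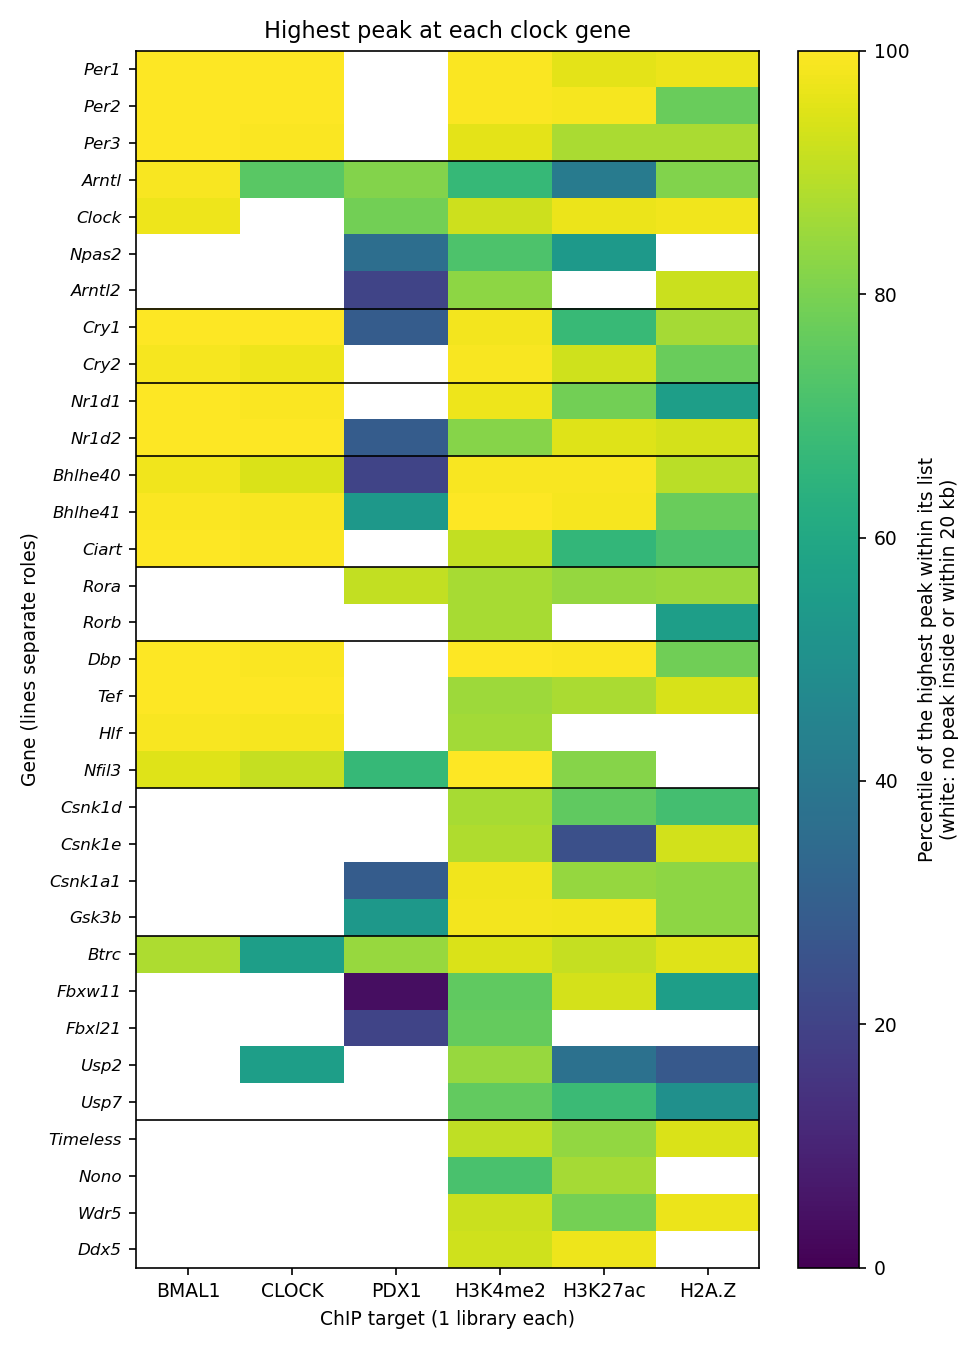
Percentile of the highest peak or interval inside or within 20 kb of each of the 3 Period genes (top rows) and 30 of the other clock genes, within each of the 6 lists, with white for none and lines between roles. Per1, Per2 and Per3 are near 100 for BMAL1 and CLOCK and white for PDX1, and the histone columns also count intervals of neighbours, such as those of Hes7 at Per1 and of Vamp3 at Per3.

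The genes most like each Period gene were those with the smallest Euclidean distance between percentiles over the 6 lists, with 0 for no peak. For Per1 they were Trim8 (distance 4.59), Gsk3a (5.86), Zfp526 (7.32), Dnah2 (8.15) and Foxred2 (8.53). For Per2 they were Dbp, Sphk2, Car11, Ntn5 and Sec1, all at 1.73, which are neighbours of one another and share the same peaks. For Per3 they were Thra (9.10), Fam25c and Sncg (9.16 each), Foxred2 and Eif3d (9.62 each). Thra lies beside Nr1d1, and percentiles of a window with a neighbour's peaks are shared by all genes of that window. All histone percentiles of Per1 came from the intervals at Hes7 and Aloxe3. For Per3, those of H3K27ac (87.3) and H2A.Z (87.4) came from Vamp3. The likeness of these genes is thus in part to intervals of their neighbours.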

How the data were processed

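The submitters' processing notes name Bowtie 1.1.1, HOMER and the build mm10. A version of HOMER was not given in the sources used. HOMER findPeaks made 1 list per library, with 1 tag at most counted per base, per the file headers. BMAL1, CLOCK and PDX1 peaks have fixed widths, and histone intervals vary in region size. Per the file headers, one input served for the BMAL1, CLOCK and H2A.Z lists and the second for the others, while the H2A.Z sample description names the second. The deposited normalized tag count is a signal per 10000000 tags, and tags per peak, recovered from it and the library total in the deposited header, gave exact Poisson intervals. The deposited fold over input and over 10 kb are ratios, the deposited focus ratio is a fraction, and the deposited score was used only to rank and filter. The deposited p-value columns entered no result.

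Gene spans of 21887 protein-coding genes and promoter letters came from RefSeq tables of build GRCm38.p6, whose chromosome coordinates are those of mm10. The spans carry no strand or exons. Promoter entries were matched for Per1 (2 starts) and Per3. Peaks overlapped when they shared 1 bp. Named genes were the members, at most 2 genes of each role (highest and lowest BMAL1 count), all neighbours in the windows and the 5 most alike genes. Values of 2 genes of the clock list are not reported here. The members, lists and rules were chosen with earlier results of these data known. Searches for peaks at genes and for overlaps between peaks were tested on simulated data. Tables were computed with pandas 2.3.3, SciPy 1.17.1 and NumPy 2.4.6 in Python 3.11.15, and plots drawn with matplotlib 3.10.9.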

Additional observations from a re-analysis of the deposited data

How the results depend on the processing

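Counts of peaks at the Period genes fell for factors and marks alike with the gene span alone. There were then 2 BMAL1, 1 CLOCK, 3 H3K4me2, 4 H3K27ac and 3 H2A.Z peaks. The paired sites were all lost, as their centres lie just outside the spans, and the BMAL1 peaks left were the further ones of Per3. Within 5 kb and within 50 kb the factors kept their 5 BMAL1 and 4 CLOCK peaks, while the marks changed. Within 5 kb there were 5 H3K4me2, 7 H3K27ac and 3 H2A.Z intervals, and within 50 kb 24, 24 and 10. At 8 times the input or more, 1 H3K4me2, 6 H3K27ac and 2 H2A.Z intervals were left. The upper 50% of each list by score held 3 of the BMAL1 peaks, the paired ones, and 6 of the H3K27ac intervals.

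Ranks by fold over input, chosen after seeing the data, were 309 (Per1), 1158 (Per2) and 1159 (Per3) for BMAL1 and 86, 423 and 353 for CLOCK. Ranks by fold over the surrounding 10 kb were also chosen after seeing the data. They were 25 (Per1), 3 (Per2) and 19 (Per3) for BMAL1, and 42, 6 and 17 for CLOCK. Counting an H2A.Z interval within 500 bp gave 1 paired site with H2A.Z, at Per2. By score, Per1 had BMAL1 rank 4, inside its counting interval, and the other 5 ranks kept their values. Ranks of the marks moved far more, outside their counting intervals in 25 of 27 cases. The Per2 H3K27ac interval, rank 421 by tag count, had rank 17381 by score, 2252 per kb and 4036 by fold over input, and its H3K4me2 interval, rank 148, had 5559, 3527 and 27182. Of the counts of peaks per gene, 43 of 108 changed by over 1.5 times, as did 16 of the 30 shares of all genes with a peak. For CLOCK that share was 3.25% with gene spans alone, 5.32% within 5 kb, 13.1% within 50 kb, 4.62% at 8 times the input and 4.94% in the upper 50% by score, against 8.23%. For BMAL1 it ran from 7.47% to 21.3%, against 14.0%. The cause was not tested. Motifs in the central part of each peak alone were not searched, since no genome was used. No paired analysis was possible because each target had 1 library. Sites absent from a list were not called at this depth. The tag thresholds of the headers were not floors: 1132 BMAL1 peaks, 203 CLOCK peaks and 5020 H2A.Z intervals had fewer tags than theirs.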
